A study of Mus musculus with 18 samples.

Results

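The mitosis and kinetochore genes were 45 genes chosen by name for their roles in chromosome segregation and cell division. They were followed in splenic CD23+ B cells of female F1 129S1/Cast mice with the genotype Xist+/-, before and after activation with CpG. The rule names genes and uses no measured value, but the list was chosen with earlier results of these data known. All 45 were found in the tables of reads assigned to the 129S1 genome, out of 40327 gene rows, and 43 in the tables of reads assigned to the CAST genome, out of 39147. Plk1 and Prc1 were not analysed on the Cast side. CD23 is a surface receptor of mature follicular B cells. CpG stands for short DNA with unmethylated CpG motifs, which TLR9 senses in B cells and which drives them into the cell cycle. The naive group held 3 untreated samples, and the stimulated group held 3 samples cultured in vitro with 1 µM CpG for 24 h. All 6 samples carried the Xist+/- genotype, and per the labels the inactive X chromosome was always the Cast one, so no group without the Xist mutation entered the comparison. The series lists 18 samples, of which 12 were not analysed here. The labels do not say whether replicates came from separate animals, so p-values measure only the spread between these samples, which may be technical.

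Mitosis depends on machinery that a resting lymphocyte does not need. Kinetochores are assembled on centromeres that carry the histone variant CENP-A, and they bind spindle microtubules through the NDC80 complex. The spindle assembly checkpoint delays anaphase until chromosomes are attached, after which CDC20 activates the anaphase-promoting complex, separase opens cohesin and the cell divides. Transcripts of many of these genes accumulate late in the cell cycle, in G2, and repression of their promoters in quiescent cells by the DREAM complex acts through the cell cycle genes homology region (CHR).

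RefSeq promoter windows, from 250 bases before to 50 after the start site in GRCm38.p6, were matched for 38 of the 45 genes. The CHR element was searched as TTTGAA on both strands, and the CCAAT box, bound by NF-Y, as CCAAT on both strands. The 2 motifs can share at most 1 base. The CHR letters occurred in 26 of the 38 genes (68.4%), against 20.2% of all 27025 genes with a window. Within 50 bases of the start site they occurred in 24 of the 38 (63.2%), against 5.72% of all genes. The CCAAT letters occurred in 28 of the 38 (73.7%), against 41.1% of all genes. Among other mitosis genes outside the list, 36 of 93 (38.7%) held the CHR letters, 26 (28.0%) within 50 bases of the start site. The CCAAT letters occurred in 52 of these 93 (55.9%). Among DNA replication genes, 4 of 24 held the CHR letters and 15 of 24 the CCAAT letters. A match is a description of letters and not evidence of binding. The sequences below are shown because they belong to genes with the largest or smallest change of their role group, which differed widely in response. Each runs 5′ to 3′ on the gene's strand, from 120 bases before to 30 after the start site, with matches to the CHR and CCAAT letters on either strand in capitals. The stretches are those of Top2a at chr11:99024160-99024309 on the minus strand, Kif15 at chr9:122950961-122951110 on the plus strand, Cenpa at chr5:30666766-30666915 on the plus strand, Espl1 at chr15:102296173-102296322 on the plus strand, Kif23 at chr9:61946770-61946919 on the minus strand and Spag5 at chr11:78301471-78301620 on the plus strand, and the letters are RefSeq's.
Top2a: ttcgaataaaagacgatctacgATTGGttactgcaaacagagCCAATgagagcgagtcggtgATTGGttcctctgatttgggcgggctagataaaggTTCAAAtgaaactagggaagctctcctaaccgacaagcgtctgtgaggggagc
Kif15: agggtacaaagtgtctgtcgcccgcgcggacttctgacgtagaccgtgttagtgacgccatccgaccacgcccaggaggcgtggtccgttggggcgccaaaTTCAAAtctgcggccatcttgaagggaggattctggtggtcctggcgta
Cenpa: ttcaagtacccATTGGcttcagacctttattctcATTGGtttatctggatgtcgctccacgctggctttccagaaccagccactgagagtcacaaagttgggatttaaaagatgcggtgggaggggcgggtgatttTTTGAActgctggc
Espl1: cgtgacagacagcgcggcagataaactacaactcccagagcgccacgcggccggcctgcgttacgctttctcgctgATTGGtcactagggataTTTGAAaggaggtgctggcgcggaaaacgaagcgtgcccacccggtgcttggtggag
Kif23: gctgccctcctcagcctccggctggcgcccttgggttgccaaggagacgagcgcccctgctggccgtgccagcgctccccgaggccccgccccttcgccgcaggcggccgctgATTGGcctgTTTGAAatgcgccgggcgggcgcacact
Spag5: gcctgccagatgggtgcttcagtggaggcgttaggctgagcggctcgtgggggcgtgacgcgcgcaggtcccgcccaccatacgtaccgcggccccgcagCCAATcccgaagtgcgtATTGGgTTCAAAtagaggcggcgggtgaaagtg

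Top2a, the most strongly changed of the chromosome structure genes, held 3 CCAAT boxes and, at position -23 from the start site, a CHR element in the stretch shown. Cenpa, the least changed gene of the whole list, held its CHR element downstream of the start site, at position 17, and 2 CCAAT boxes in that stretch. Kif15 held a CHR element and no CCAAT box in the stretch shown. The printed genes were taken from those with CHR letters, so their having them is no result. The windows of Aunip, with the largest change in the Cast tables, and of Birc5 and Plk4, the most and the least changed of their role groups in the 129 tables, held neither motif, and that of Bub1 held CCAAT letters alone. The plot of element positions shows where the matches fall in each window.

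**Figure D1:**
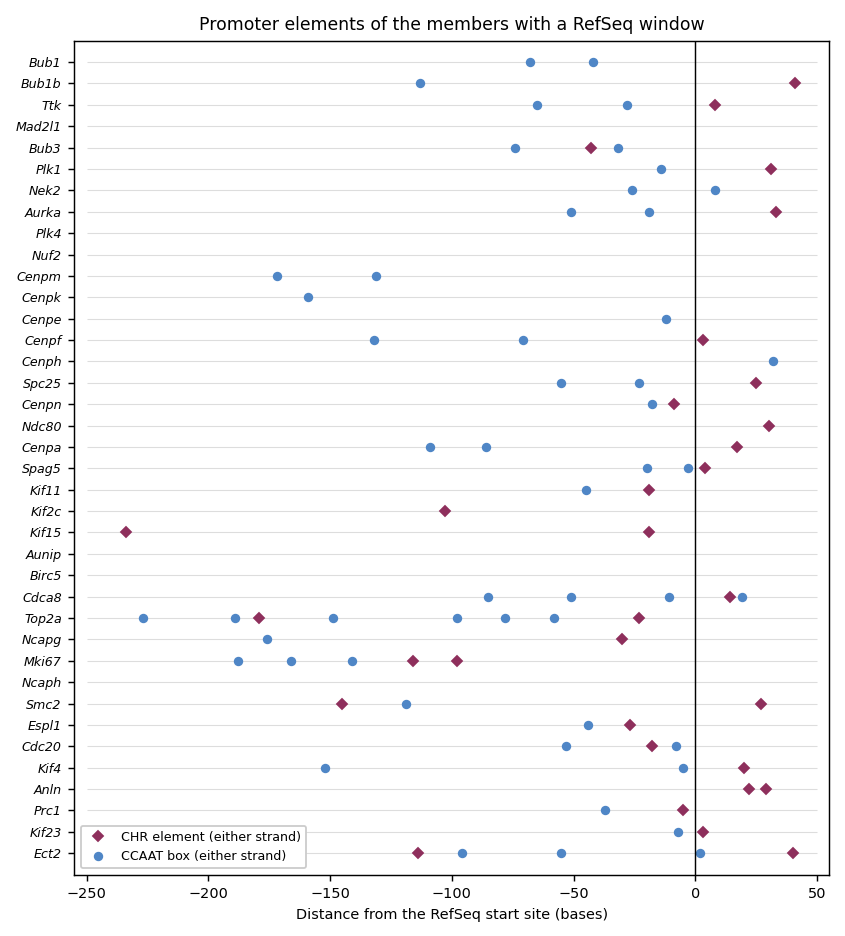
Positions of CHR elements (diamonds) and CCAAT boxes (circles), on either strand, along the RefSeq promoter window of the 38 matched genes. The horizontal axis is the distance in bases from the start site, and each row is 1 gene, drawn from its first window with a match. In 24 of 38 genes a CHR element lies within 50 bases of the start site in at least 1 window.

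The smallest and largest libraries held 1987266 and 2928236 gene reads on the 129 side, and 2465073 and 3321753 on the Cast side. Levels are given in CPM, the reads of a gene relative to all gene reads of its table, with the totals scaled by TMM. The naive samples held transcripts of other cell types: 14 macrophage markers summed to between 3310 and 6834 CPM in the naive 129 tables and to between 25.5 and 35.2 CPM in the stimulated ones. Each of the 14 had its 3 stimulated values below its naive ones, 1 was at 0 in the stimulated samples and 9 had at most 2 reads in each. The sum of 10 T cell markers went from between 42.8 and 53.2 CPM to between 1.06 and 2.44, with 6 of them at 0 in all stimulated samples. The 8 erythroid markers in the table summed to between 139 and 283 CPM before and between 25.9 and 41.5 after, with 6 of the 8 lower in every stimulated sample. On the Cast side 10 of them summed to between 90.8 and 197 CPM before and between 62.1 and 76.6 after, and most of the stimulated sum was Hemgn, which rose by 1.49 there (edgeR adjusted p = 2.26e-04). The 8 B cell markers were present in all samples, at a sum of 9033 to 11288 CPM in naive and 3204 to 3973 CPM in stimulated samples. The part of these other cells in the changes below was not tested. In bulk RNA, a larger share of cells in the cycle and more RNA per cell cannot be told apart. Same-numbered naive and stimulated samples deviated from their group means in the same direction, most strongly in the ratio of Cast to 129 reads. For some genes 1 sample stood apart in the Cast share, as described with the alleles. The part of these deviations in single-table values was not tested.

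After 24 h of CpG the mitotic programme was far above its naive level on both genomes. Summed over the 43 genes in both tables, the level was 825, 1055 and 721 CPM in the naive samples and 11751, 16634 and 11014 CPM in the stimulated ones. In the 129 tables, 43 genes passed the filter on low counts, and 43 of these rose at an adjusted p under 0.05 in edgeR's quasi-likelihood test. Of all 10581 genes tested there, 28.2% were called higher. On the Cast side, 41 passed the filter and 40 rose, with a background of 30.7% of 10365 genes called higher. No gene of the list was called lower, against 27% of all genes in the 129 and 31.5% in the Cast tables. With both tables summed, 41 of 42 rose, against 34.2% of 10343 genes. With a block for the replicate number, 43 and 40 rose, against 33.1% and 32.9% of all genes. Every stimulated sample was above every naive one for 43 of the 43 genes, against 32.6% of all genes, and for 40 of the 41 on the Cast side, against 33.7%. The median log2 fold change was 4.46 in the 129 and 4.52 in the Cast tables, against -0.01 and -0.04 over all tested genes. The filter needs reads in only 3 samples, so a gene silent in naive cells enters it through the stimulated group. Such a gene can hardly be called other than higher, so its call adds little to the counts above. Of the 45 genes, 24 in the 129 tables reached the filter's level in every naive sample, and of the 43 on the Cast side 20 did. These 24 were all called higher, and so were the 20 except Cenpa. The plot of changes by table gives every tested gene.

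**Figure D2:**
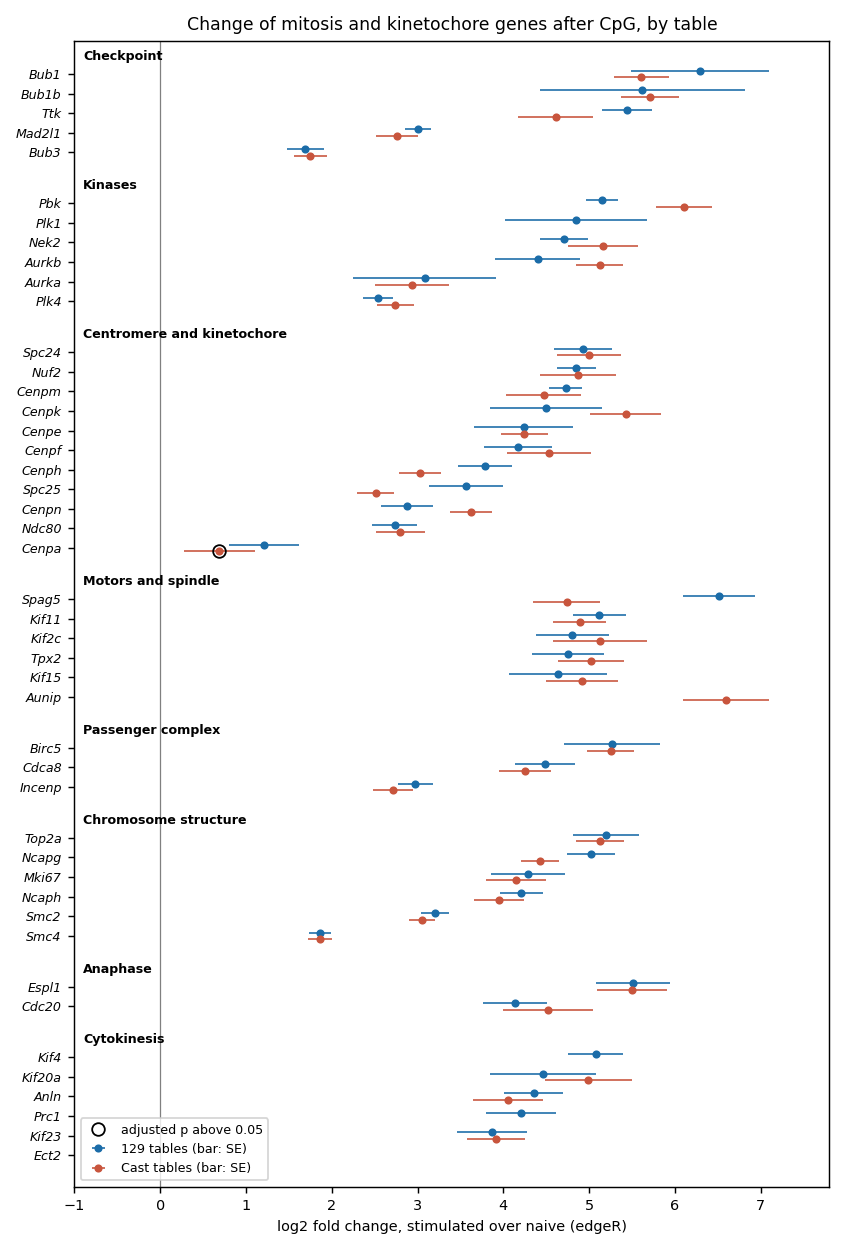
log2 fold change of stimulated over naive samples for each gene, with its standard error, in the 129 (blue) and Cast (red) tables, 3 samples a group, grouped by role. Genes without a point were not tested. Values run from 0.69 for Cenpa, circled because it was not called in the Cast tables, to 6.59 for Aunip.

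In the spindle assembly checkpoint, 5 of 5 genes rose on both genomes. Bub1, a checkpoint kinase at kinetochores, stood at 0, 4.16 and 0.501 CPM in the naive and 83.1, 182 and 128 CPM in the stimulated 129 tables. The groups were far apart, and the log2 fold change was 6.30 (SE 0.80, edgeR adjusted p = 0.00107), against 5.61 (SE 0.32, adjusted p = 1.48e-06) in the Cast tables. Without naive replicate 2, which held 10 of the 11 naive reads of Bub1, its 129 value was 8.87. Mad2l1, whose product inhibits CDC20, went from 79.6, 61.5 and 79.2 to 558, 655 and 552 CPM on the 129 side, a log2 fold change of 3.00 (SE 0.15, adjusted p = 1.53e-05). Bub3, which carries BUB1 and BUBR1 to kinetochores, was present in naive cells at 24.1, 17.9 and 16.0 CPM and reached 61.1, 72.3 and 54.4 CPM. It had the smallest change of the group, 1.69 (SE 0.22, adjusted p = 4.58e-04) in the 129 and 1.75 (SE 0.20, adjusted p = 5.28e-05) in the Cast tables. Ttk, the checkpoint kinase MPS1, rose by a log2 fold change of 5.44 in the 129 and 4.61 in the Cast tables, the latter 5.92 without naive replicate 2.

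Bub1b encodes BUBR1, a component of the mitotic checkpoint complex. In the 129 tables it had 0, 14 and 4 reads in naive and 74, 616 and 442 in stimulated samples, and replicate 1 was the lowest in both groups. Its log2 fold change there was 5.62 with a wide SE of 1.20 (adjusted p = 0.0104), and it was 5.03 without naive replicate 1 and 7.08 without naive replicate 2. On the Cast side the 3 stimulated samples were at 228, 199.5 and 141 CPM, and the change was 5.71 with an SE of 0.33 (adjusted p = 1.69e-06).

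The mitotic kinases rose in 6 of 6 cases in the 129 and 5 of 5 in the Cast tables. Aurkb, the kinase of the chromosomal passenger complex, went from 18.1, 17.9 and 4.51 to 261, 374 and 233 CPM in the 129 tables (log2 fold change 4.40, SE 0.49, adjusted p = 5.36e-04). Pbk, a mitotic kinase also known as TOPK, went from 2.58, 3.32 and 2.51 to 107, 99.2 and 98.8 CPM, and the stimulated samples were nearly level. Its change was 5.15 (SE 0.19) in the 129 and 6.10 (SE 0.33) in the Cast tables, the largest of the kinases in each, and 7.02 in the latter without naive replicate 2. Nek2, a centrosomal kinase, rose by 4.70 and 5.16 (5.82 without naive replicate 2). Plk4, which starts centriole duplication, changed least, from 18.9, 14.5 and 15.5 to 91.7, 107 and 86.2 CPM (2.54, SE 0.18, adjusted p = 2.96e-05). Plk1, which acts at several steps from mitotic entry to cytokinesis, went from 6.02, 3.32 and 0 to 128, 109.5 and 44.3 CPM in the 129 tables, the lowest in replicate 3 of both groups, a log2 fold change of 4.85 (SE 0.83, adjusted p = 0.00356). Without naive replicate 1 it was 5.68.

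Aurka, the centrosomal Aurora kinase, was the least secure of these calls on the 129 side. It had 2, 1 and 9 reads in naive and 19, 75 and 41 in stimulated samples, or 0.861, 0.416 and 4.51 against 6.83, 26.6 and 14.3 CPM. The log2 fold change was 3.08 (SE 0.83, edgeR adjusted p = 0.0168). The adjusted p was 0.0634 without naive replicate 1, 0.0523 without naive replicate 2 and 0.0544 without stimulated replicate 2, where the change was 2.48. Without naive replicate 3 the change was 4.55. Aurka in the Cast tables rose from 3.39, 2.53 and 4.30 to 33.1, 32.1 and 13.3 CPM (2.94, SE 0.43, adjusted p = 2.93e-04).

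Of the 11 centromere and kinetochore genes, 11 rose in the 129 and 10 in the Cast tables. Spc24, a subunit of the NDC80 complex, went from 8.17, 9.97 and 4.01 to 198, 295 and 194 CPM on the 129 side, the largest change of the group there (4.93, SE 0.34, adjusted p = 3.63e-05). Values within the complex ranged widely: Nuf2 rose by 4.85 and 4.87 log2 units (the latter 5.49 without naive replicate 2), Spc25 by 3.56 and 2.51, and Ndc80 itself by 2.73 and 2.80 in the 129 and Cast tables. These differences between genes were not tested. Cenpf and Cenpm rose by 4.17 and 4.72 in the 129 and by 4.53 and 4.47 in the Cast tables, where both were larger, 5.44 and 5.41, without naive replicate 2. Cenpn rose by 2.88 and 3.62. Cenpe, a kinesin that moves chromosomes to the spindle equator, went from 25.8, 28.3 and 9.03 to 399.5, 592 and 212 CPM in the 129 tables (4.24, SE 0.58, adjusted p = 0.00156) and by the same 4.24 (SE 0.27) in the Cast tables. Cenph, of the constitutive centromere network, went from 7.31, 10.4 and 3.51 to 94.6, 102 and 102 CPM on the 129 side, with stimulated samples almost equal. Cenpk, of the same network, went from 0.861, 1.25 and 0.501 to 11.9, 36.9 and 14.7 CPM in the 129 and from 1.51, 1.80 and 1.72 to 89.2, 41.9 and 90.6 CPM in the Cast tables. Stimulated replicate 2 was thus its highest sample on one genome and its lowest on the other. Its 129 change was 4.50 and, without stimulated replicate 2, 3.82.

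Cenpa, the centromeric histone itself, changed least of the kinetochore genes. It stood at 49.9, 47.0 and 45.6 CPM in the naive 129 tables and at 71.9, 187 and 71.2 CPM in the stimulated ones. The groups did not overlap, but stimulated replicate 2 was far above the other 2 samples. On the Cast side it was at 67.8, 74.7 and 54.1 against 76.3, 190.0 and 51.2 CPM, and stimulated replicate 3 was below every naive sample. The log2 fold change was 1.21 (SE 0.41, edgeR adjusted p = 0.0419) in the 129 and 0.69 (SE 0.41, adjusted p = 0.175) in the Cast tables, and 0.94 (SE 0.43, adjusted p = 0.0921) with both tables summed. Without stimulated replicate 2 the values were 0.58 in the 129 tables, where it still passed (adjusted p = 0.0162), and -0.02 in the Cast tables. On the 129 side the adjusted p was 0.0987, 0.116 and 0.110 when naive replicate 1, 2 or 3 was left out. Without stimulated replicate 3 the Cast value was 1.04 and passed (adjusted p = 0.0366).

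All 5 tested genes of the spindle motors and their partners rose in the 129 tables, and 6 of 6 in the Cast tables. Spag5 (astrin), which stabilises spindle and kinetochore attachment, had the largest change of all tested genes of the list on the 129 side, from 0.861, 1.25 and 0.501 to 72.3, 121 and 64.2 CPM (6.52, SE 0.42, adjusted p = 2.41e-05). On the Cast side it went from 3.77, 2.53 and 3.01 to 66.2, 126 and 59.2 CPM (4.74, SE 0.39), so the stimulated levels were alike and the naive ones differed by a few reads. Kif11, the Eg5 motor that separates spindle poles, went from 11.2, 15.0 and 6.52 to 337, 478 and 337 CPM (5.12, SE 0.31, adjusted p = 2.62e-05). Kif15, a motor that can stand in for Eg5, went from 6.02, 19.9 and 4.01 to 248, 309.8 and 206 CPM (4.64, SE 0.58, adjusted p = 9.43e-04), and without naive replicate 2, its highest naive sample, by 5.64. Its Cast value was 4.91, and 5.71 without that sample. Tpx2, which activates Aurora A on the spindle, rose by 4.76 and 5.02 log2 units in the 129 and Cast tables, and Kif2c, a kinesin that takes microtubules apart, by 4.80 and 5.13. Without naive replicate 2 the Cast value of Kif2c was 6.60.

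Aunip, an Aurora A partner at centrosomes, was below the filter in the 129 tables. It had 0, 2 and 0 reads there in naive and 3, 149 and 120 in stimulated samples, and replicate 1 was nearly empty in both groups. The ratio of the group sums, scaled to library totals, was 108, with a counting interval from 29.6 to 896. Its Cast levels went from 1.13, 0.721 and 0 to 92.0, 58.0 and 48.8 CPM, the largest change there (6.59, SE 0.50, adjusted p = 5.62e-06), and without naive replicate 1 the value was 7.29. With both tables summed, its stimulated samples were close together at 60.5, 67.2 and 55.6 CPM.

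The 3 genes of the chromosomal passenger complex beside Aurkb rose on both genomes. Birc5 (survivin), which takes the complex to centromeres, went from 6.02, 11.2 and 1.50 to 213, 329 and 206 CPM in the 129 tables (5.27, SE 0.56, adjusted p = 4.76e-04). Without naive replicate 2 its change was 5.99. Incenp, the scaffold of the complex, started higher relative to its stimulated level, at 16.8, 20.4 and 23.1 CPM, and reached 146, 193 and 133 CPM (2.97, SE 0.20, adjusted p = 2.89e-05). Cdca8 (borealin) lay between them, with 4.49 in the 129 and 4.25 in the Cast tables.

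All 6 chromosome structure genes rose in each table. Top2a, the topoisomerase that untangles sister chromatids, went from 60.2, 98.1 and 42.6 to 2277, 3158 and 1956 CPM in the 129 and from 58.8, 83.3 and 42.5 to 1917, 2623 and 1934 CPM in the Cast tables. Its log2 fold changes were 5.20 (SE 0.38, adjusted p = 7.73e-05) and 5.13 (SE 0.27, adjusted p = 1.32e-06). Mki67, whose product coats mitotic chromosomes and marks cycling cells, rose by 4.15 (SE 0.35) in the Cast tables. The condensin subunits had unequal changes, whose differences were not tested. The core ATPases Smc4 and Smc2 already had reads in every naive sample and rose by 1.86 and 3.21 log2 units in the 129 tables, while the condensin I subunits Ncapg and Ncaph rose by 5.02 and 4.21. The same 4 values on the Cast side were 1.86, 3.05, 4.43 and 3.94. Smc4 went from 159, 185 and 163 to 574, 696 and 571 CPM on the 129 side (SE 0.13, adjusted p = 2.96e-05), and Smc2 from 25.0, 26.6 and 34.6 to 247, 287 and 260.0 CPM.

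Both anaphase genes rose on both genomes. Espl1 (separase), the protease that cleaves cohesin, went from 2.15, 2.91 and 1.00 to 85.9, 138 and 66.0 CPM in the 129 tables (5.51, SE 0.43, adjusted p = 5.53e-05). Cdc20, the activator of the anaphase-promoting complex, went from 3.87, 6.65 and 5.01 to 72.3, 136 and 68.1 CPM (4.14, SE 0.37, adjusted p = 9.99e-05). In both genes stimulated replicate 2 was above the other stimulated samples on either genome, and for Cdc20 in the Cast tables it was at 118 CPM against 50.1 and 46.2. Its Cast change was 4.52, and 5.30 without naive replicate 2.

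Among the cytokinesis genes, 5 of 5 tested rose in the 129 and 3 of 3 in the Cast tables. Kif20a, a motor of the central spindle, went from 2.58, 9.14 and 1.50 to 83.4, 145 and 72.6 CPM (4.46, SE 0.62, adjusted p = 0.00123). Its naive replicate 2 held most of its naive reads, and without that sample the change was 5.57. On the Cast side it was 4.99, and 5.87 without the same sample. Anln (anillin), a scaffold of the contractile ring, rose by 4.35 and 4.05, the latter 4.65 without naive replicate 2. Kif23, a subunit of centralspindlin, went from 2.58, 3.32 and 5.01 to 44.6, 78.3 and 36.6 CPM (3.87, SE 0.40, adjusted p = 1.81e-04). Prc1, which bundles the microtubules of the midzone, went from 18.5, 26.6 and 9.53 to 331, 439.9 and 248 CPM (4.21, SE 0.40, adjusted p = 2.42e-04). Ect2, the exchange factor that starts the contractile ring, was barely counted: it had 1, 1 and 0 reads in naive and 6, 5 and 9 in stimulated 129 samples, and 1, 0 and 1 against 3, 4 and 7 in the Cast tables. It passed the filter in neither. The scaled ratios of its group sums were 7.94 (counting interval 1.93 to 70.1) and 5.54 (1.27 to 50.2). These intervals are 95% intervals and reflect counting error alone, because PCR copies of a molecule are not told apart here.

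Kif4, a chromokinesin that works with PRC1 at the midzone, was the only X-linked gene of the list. On the 129 X chromosome, the active one, it went from 9, 16 and 7 reads to 359, 604 and 401, or from 3.87, 6.65 and 3.51 to 129, 214 and 140.0 CPM (log2 fold change 5.08, SE 0.32, adjusted p = 2.44e-05). On the Cast X chromosome it had 0 reads in all 3 naive samples and 11, 23 and 0 in the stimulated ones. Against a floor of 3 reads over the naive group this was at least 8.97-fold higher, but stimulated replicate 3 had none of its 401 reads on the Cast side, with an upper Wilson bound of 0.949%. The Cast shares of the other 2 stimulated samples were 2.97% (95% Wilson interval 1.67 to 5.24) and 3.67% (2.46 to 5.44). Its 10 neighbours on either side had median Cast shares of 1.96%, 4.27% and 3.07% in stimulated replicates 1, 2 and 3. The change of its allele ratio was not called (edgeR adjusted p = 0.978, and 0.253 with the replicate block, where its sign was the opposite). With 7 to 16 reads a sample, the upper Wilson bounds of the naive shares were 19.4% to 35.4%.

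The genes differed between the stimulated samples more than genes did in general, and most of this lay in replicate 2. Over the 3 stimulated samples the SD of log2 CPM had a median of 0.37 in the 129 tables, against 0.24 over all tested genes, and of 0.31 against 0.18 with both tables summed. Replicate 2 was the highest stimulated sample for 38 of the 43, against 36.6% of all tested genes, for 33 of 41 in the Cast tables, against 38.8%, and for 39 of 42 with the tables summed, against 38.2%. Of the 40 genes tested in both tables, 30 (75%) had replicate 2 highest in each, against 21.2% of 8654 genes. With the tables summed, the level in replicate 2 divided by the mean of replicates 1 and 3 had a median of 1.45, against 1.00 over all genes. These are descriptions with no test, and the ratio was chosen after its values were seen. Without stimulated replicate 2 the median SD in the 129 tables was 0.11, below the 0.16 of all genes. Without replicate 1 it was 0.43 against 0.20, and without replicate 3 it was 0.40 against 0.21. A larger spread was not particular to the stimulated group. Over the naive samples, where many of these genes had few reads, the median SD was 0.53 against 0.25 in the 129 tables. With both tables summed it was 0.46 against 0.19 there.

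The ratio varied with the gene. It was 2.78 for Cenpa and 2.15 for Cdc20, and 1.94 for Tpx2, 1.93 for Kif20a, 1.91 for Kif23 and 1.88 for Espl1. It was close to 1 for Pbk (1.01), Smc2 (1.01), Cenph (1.04) and Ttk (1.11), and 0.721 for Cenpk. Median ratios by role were 2.01 for the 2 anaphase genes, 1.77 for cytokinesis, 1.64 for motors and spindle, 1.57 for the passenger complex, 1.45 for the kinases, 1.37 for the centromere, 1.32 for chromosome structure and 1.19 for the checkpoint. The 23 genes with CHR letters that were tested with the tables summed had a median of 1.54 (range 1.01 to 2.78). The 12 tested genes without had 1.27 (0.721 to 1.82). Ect2, which held CHR letters but was not tested, had a ratio of 0.722 on 9, 9 and 16 reads. The median log2 fold change with CpG was 4.38 for the 23 genes and 4.77 for the 12. These differences were not tested. The 105 other mitosis genes had a median of 1.19, and 26 DNA replication genes, which act earlier in the cycle, had 1.01. With the tables summed, the replication genes added up to 9832, 10081 and 10467 CPM in the stimulated samples. The mitosis-to-replication ratio was thus 1.20, 1.65 and 1.05, and 0.622, 0.785 and 0.531 in the naive samples. The replication sum of stimulated replicate 3 was the lowest in the 129 tables (7608 CPM) and the highest in the Cast tables (9740 CPM). The stimulated ratios were 1.35, 1.92 and 1.43 in the 129 and 1.06, 1.40 and 0.796 in the Cast tables, highest in replicate 2 in each. Replicate 2 of the stimulated group also had the fewest aligned reads outside annotated genes, 48.1% in the 129 tables against 52.8% and 56.7%, and the highest summed B cell markers, 3973 against 3204 and 3221 CPM. The part of these in the ratio was not tested. In the naive group, replicate 2 was the highest sample for 24 of the 43 genes tested in the 129 tables, against 35.2% of all tested genes, and for 25 of the 41 on the Cast side, against 35.5%. The 8 germinal centre and plasma cell markers were also highest there, at a sum of 173, 281 and 114 CPM in the naive 129 tables, most of it Jchain, and their part was not tested.

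**Figure D3:**
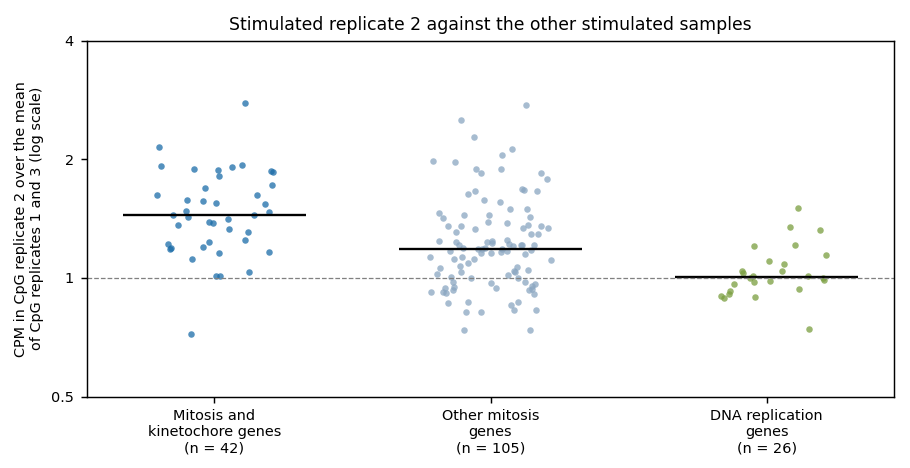
Level (CPM, both tables summed) in stimulated replicate 2 divided by the mean of stimulated replicates 1 and 3, on a log axis. Each point is 1 gene, and bars mark the medians of 1.45 for the mitosis and kinetochore genes, 1.19 for the other mitosis genes and 1.01 for the DNA replication genes.

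**Figure D4:**
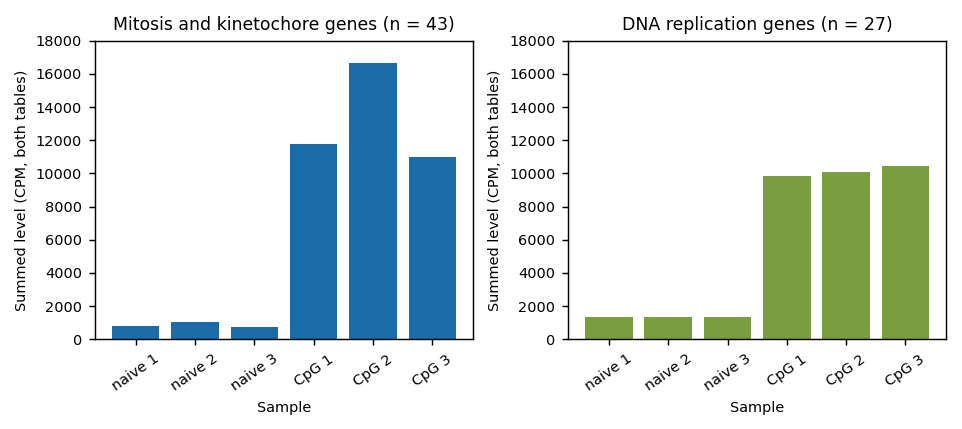
Summed level (CPM, both tables summed) of 43 mitosis and kinetochore genes and 27 DNA replication genes in each of the 3 naive and 3 stimulated (CpG) samples. The mitosis genes reach 16634 CPM in stimulated replicate 2 and 11751 and 11014 in the others, while the replication genes lie between 9832 and 10467.

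The alleles were compared by the Cast share, the Cast reads over the 129 and Cast reads of a gene. For 6 of 41 autosomal genes (14.6%) with at least 30 reads in every stimulated sample, 1 stimulated sample lay at least 15 percentage points from both others, as it did for 15.9% of 7969 autosomal genes. For Bub1b on chromosome 2 the stimulated shares were 90.7% (95% Wilson interval 88.5 to 92.6), 51.2% (48.5 to 54.0) and 51.9% (48.7 to 55.1). Naive replicate 1 had 12 of 12 Bub1b reads from Cast. The median share of its 20 neighbouring genes also stood apart in replicate 1, at 73.6% in naive and 68.8% in stimulated cells. In the other samples this median was 48.3% to 52.8%. Shares given below for neighbours are likewise medians over those genes. Aunip on chromosome 4 had 99.0% (97.0 to 99.7) in stimulated replicate 1 and 55.8% and 57.9% in the others. Aurka on chromosome 2 had 84.7% (77.3 to 90.0) against 58.1% and 52.3%, and Spc25, also on chromosome 2, 65.6% against 39.6% and 37.9%. Nuf2 on chromosome 1 stood apart in replicate 2, with 70.2% (68.0 to 72.3) against 49.7% and 47.3%. Its neighbours were at 62.0% in that sample against 53.9% and 52.0%, under 15 points away. In naive replicate 2 they were at 71.6% against 52.3% and 53.1%. Cenpk on chromosome 13 had 56.7% in replicate 2 against 89.6% and 87.9%. In stimulated replicates 1, 2 and 3 the neighbours of Aunip were at 60.9%, 52.0% and 51.4%, and those of Aurka at 59.4%, 52.5% and 49.5%. Those of Spc25 were at 51.3%, 50.1% and 48.7%, and those of Cenpk at 57.6%, 50.8% and 53.9%. Of the 6 genes, only Bub1b had neighbours at least 15 points from the median of the other 2 samples in both groups. The SD of log2 CPM of Bub1b over the stimulated samples was 1.61 in the 129 tables, 0.36 in the Cast tables and 0.33 with the tables summed. For Aunip it was 2.71, 0.47 and 0.14, and for Nuf2 0.19, 0.58 and 0.26.

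**Figure D5:**
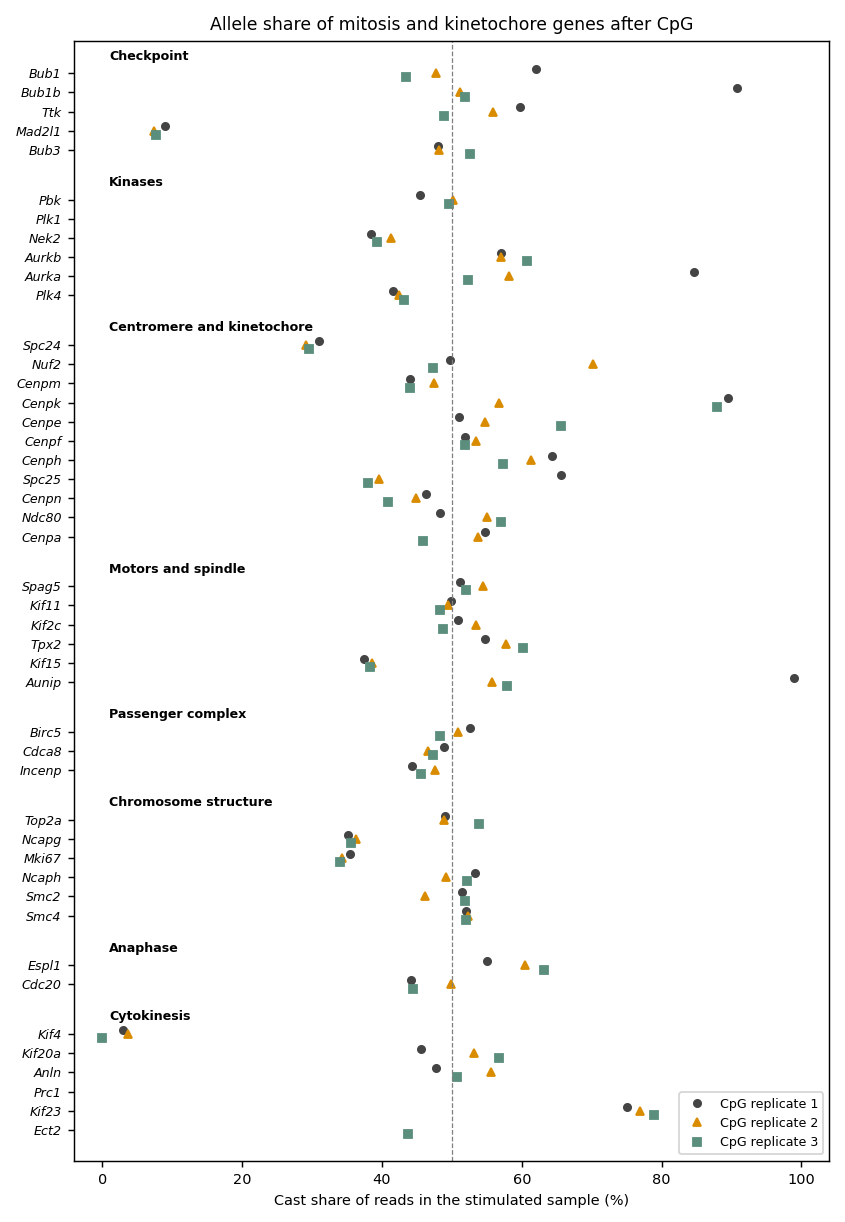
Cast share of reads (%) of each gene in the 3 stimulated samples, grouped by role, for samples with at least 10 reads of the gene over both tables. Mad2l1 and the X-linked Kif4 lie far to the left, and Bub1b, Aunip and Aurka have replicate 1 far to the right of the other samples.

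The rise with CpG was not called different between the alleles for any gene. In edgeR's test of the allele by stimulation interaction, 0 of 42 genes were called, 5 had an unadjusted p under 0.05, and 21 shifted toward each genome. Of 10364 genes tested, 0.917% were called, and 0.289% with the replicate block, where 0 of the 42 were called and 6 had an unadjusted p under 0.05. Without the block, Spag5 had the smallest p. Its Cast share was 80.3% ± 9.14 (SD, n = 3) in naive cells, on 8 to 12 reads a sample, and 52.5% ± 1.70 in stimulated cells. The log2 ratio change was -1.80 (SE 0.36, edgeR adjusted p = 0.103), and -1.19 with the block (limma adjusted p = 0.183). With the block, Spc25 had the smallest p, at a log2 ratio change of -1.04 (limma adjusted p = 0.121). Its shares were 78.7%, 60.2% and 56.4% in naive samples, on 108 to 113 reads, and 65.6%, 39.6% and 37.9% in stimulated ones. Without the block the change of Spc25 was -1.06 (SE 0.63, edgeR adjusted p = 0.663). Cenph had 73.6% ± 4.72 and 61.0% ± 3.52 (adjusted p = 0.196), and Cenpa 61.2% ± 3.33 and 51.5% ± 4.87 (adjusted p = 0.295). For both genes, and also for Spag5 and Ncapg, every stimulated sample was below every naive one, and for Pbk every one was above. Neither this separation nor an unadjusted p under 0.05 was counted over all tested genes, so no share stands beside them. They are therefore not read as a result about the list. For Ncapg the gap was narrow, 36.5% in naive against 36.3% in stimulated replicate 2, and Pbk had 7 to 14 naive reads a sample. Cenpn had 33.6% ± 8.58 and 44.0% ± 2.78 (adjusted p = 0.410), and Ncapg 46.7% ± 10.1 and 35.7% ± 0.607 (adjusted p = 0.428). A p that misses the threshold does not show that the alleles responded alike, and naive depth was low: 9 genes in the 129 and 6 in the Cast tables had under 10 reads in every naive sample.

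In stimulated cells 30 of the 42 autosomal genes had a mean Cast share between 40% and 60%. Mad2l1 on chromosome 6 had the lowest autosomal share, 7.98% ± 0.827 (SD, n = 3) in stimulated and 9.41% ± 2.99 in naive cells. The median share of its neighbours lay between 48.7% and 60.8% in all 6 samples. Spc24 on chromosome 9 followed with 29.9% in stimulated cells, but its naive shares of 9.52%, 25.0% and 55.6%, on 18 to 32 reads, ranged widely. Mki67 on chromosome 7 had 34.5% ± 0.743 in stimulated and 36.8% ± 1.83 in naive cells. Kif23 on chromosome 9 lay on the other side with 76.9% ± 1.91 in stimulated and 74.8% ± 12.9 in naive cells. In the stimulated samples these 4 shares had an SD under 2 percentage points, against 22.6 for Bub1b and 24.4 for Aunip. Whether such a share reflects transcription or the assignment of reads to a genome, as for genes with near-identical copies, was not tested. Summed over the 42 autosomal genes, the Cast share was between 46.2% and 49.7% per sample, against 51.9% to 53.6% over all autosomal genes.

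Further mitosis genes outside the list moved less uniformly. Of 103 tested in the 129 tables, 81 rose and 1 fell, and of 103 on the Cast side 85 rose and 1 fell, with a median log2 fold change of 2.02 and 1.93. Ranked by the 129 value, the largest rises called in both tables were those of Kif22, a chromokinesin (5.82 in the 129 and 4.10 in the Cast tables), Kntc1, of the checkpoint's RZZ complex (5.72 and 4.66), and Cdk1, the kinase that drives mitotic entry (5.51 and 6.02). Cdk1 went from 4.30, 11.6 and 5.52 to 272, 448 and 272 CPM on the 129 side (edgeR adjusted p = 8.91e-05). The fall was that of Numa1, which anchors spindle poles and also belongs to the interphase nucleus. It went from 439.7, 416 and 419.7 to 257, 252 and 235 CPM in the 129 tables, -0.78 in log2 fold change (SE 0.10, adjusted p = 4.17e-04), and by -0.67 (SE 0.11) in the Cast tables. Of the 16 genes of anaphase control, which include the subunits of the anaphase-promoting complex, 8 rose in the 129 and 11 in the Cast tables, with median changes of 0.78 and 0.79. Of the 5 further cytokinesis genes, 5 rose in each.

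The X-linked genes among these were Cenpi, Haus7, Smc1a and Stag2. Cenpi, of the centromere network, went from 2, 10 and 1 to 128, 132 and 140 reads on the 129 X chromosome (4.60, SE 0.54, adjusted p = 3.44e-04) and from 0, 0 and 0 to 4, 3 and 4 on the Cast one. Smc1a, a cohesin subunit, rose by 1.12 (SE 0.16, adjusted p = 6.82e-04) on the 129 side. Its Cast reads were 3, 6 and 12 in naive and 14, 22 and 10 in stimulated samples, a change of 0.77 that did not pass (adjusted p = 0.270). Haus7, of the augmin complex, rose by 1.03 on the 129 side (adjusted p = 0.0289) and had 2, 1 and 2 Cast reads before and 6, 3 and 13 after. Stag2, another cohesin subunit, was below the filter in both tables, with 3 to 11 reads a sample on the 129 side.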

How the data were processed

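Read counts per gene of 6 samples (total RNA, TRIzol, stranded library kit, per the labels) were used as deposited by the authors, 1 table for the 129S1 and 1 for the CAST genome per sample. The submitters' processing notes name STAR, featureCounts and Subread 2.0.0 without a role. The table ends hold summary rows in htseq-count form, which stayed out of library sizes. How reads were given to a genome, and whether strand was used so that antisense genes are told apart, is not given in the sources used here. Each table set was fitted whole with edgeR 4.0.16 in R 4.3.3 (filterByExpr, TMM, robust quasi-likelihood test, Benjamini-Hochberg at 0.05). The scripts were tested on simulated data. CPM on a log2 scale used a prior count of 2. The allele ratio was tested as an interaction with a term for each sample, on genes with at least 10 reads over both genomes in at least 3 samples, matched by name and chromosome (28374). The design had no replicate block. Replicate numbers come from the titles, and same-numbered naive and stimulated samples deviated together (r between 0.44 and 0.61 over 10581 genes in the 129 tables, between 0.16 and 0.25 in the Cast tables), so a block was run as an alternative. The members and gene lists were chosen with earlier results of these data known. Values per sample are given for the genes with the largest and smallest change, most reads or no call in each role group, X-linked genes, and the 3 largest and 3 smallest spreads in the 129 tables. The 3 largest rises, shared falls and X-linked genes are named among other mitosis genes. Of the genes with the largest or smallest change whose promoter held a CHR element, the 6 with most reads were printed. Counting shares carry 95% Wilson intervals. A deposited summary table of escape genes was not used. Alternatives were DESeq2 1.42.0, library size scaling, other filters, a minimum fold, the block and leaving out each sample.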

Additional observations from a re-analysis of the deposited data

How the results depend on the processing

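The counts of called genes stayed within 1.5 times under every alternative run. For the 45 genes they ranged from 41 to 44 in the 129 and from 40 to 41 in the Cast tables, and leaving out 1 sample gave 41 to 44 and 40 to 41. With the replicate block they were 43 and 40, and with both tables summed 41 of 42. For the other mitosis genes the count of called genes was 82 in the 129 tables (56 to 88) and 86 in the Cast tables (61 to 89), the lowest against a minimum log2 fold change of 1. The share of all tested genes called, higher or lower, varied more. In the 129 tables it was 55.2%, from 23.9% against the minimum fold to 65.1% with the block. In the Cast tables it was 62.2%, from 27.3% to 66.3% under the same 2 alternatives. With both tables summed it was 68.7%. For the 45 genes the allele interaction had 0 calls in every alternative, and the replicate block changed none of their calls. Among the other mitosis genes Pmf1 had a called ratio change (1.16, adjusted p = 0.0401) that was not called with the block (0.136). Of 1008 single-gene expression values under alternatives, 9 lost and 1 gained their call, all for Cenpa and Aurka, and none reversed a call. Beyond the samples left out in the report, Cenpa in the 129 tables lost its call with no filter beyond 1 read (adjusted p = 0.115) and against the minimum fold (0.377), as did Aurka against the minimum fold (0.0547). Leaving out 1 sample moved a change by over 1.5-fold for 9 genes in the 129 and 13 in the Cast tables, in 11 of the 13 with naive replicate 2. The size of a fold change is limited by naive depth: 9 and 6 genes had under 10 reads in every naive sample.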
